A study of Trametes elegans with 15 samples.

Results

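Pine wood was set against pure crystalline cellulose as the solid substrate of the white-rot fungus *Trametes elegans*, over all 949 of the 949 genes in the deposited table. The difference taken for each gene is the deposited pine level minus the deposited cellulose level, so a positive value means a higher level on pine. Both groups were mycelium of strain BRFM 1663, named *Artolenzites elegans* in the sample titles, harvested on day 3 from shaken flasks at 30 °C. The pine medium held 15 g/l of ground pine wood sifted below 2 mm, and the cellulose medium held 15 g/l of Avicel, a microcrystalline cellulose. Each also held 2.5 g/l of maltose in the same mineral base with yeast extract, so by the labels these media differ in the solid and not in the soluble sugar. The labels list 3 samples per medium, which makes 6 of the 15 samples in the series. The others were grown on aspen wood, wheat straw or maltose alone (20 g/l), again 3 per medium. Wheat straw and aspen were given at 15 g/l as well, straw in fragments below 2 mm with 2.5 g/l of maltose, and aspen Wiley-milled at 1 mm. Whether the 3 samples of a medium were separate cultures is not stated, and p-values therefore cover only the spread among them, which may be technical.

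White-rot fungi are basidiomycetes that degrade all the main polymers of wood, lignin included. Crystalline cellulose offers only chains of glucose, which such fungi attack with secreted cellulases and copper-dependent lytic polysaccharide monooxygenases. A softwood such as pine packs cellulose among glucomannans, xylan and a lignin made mostly of guaiacyl units, and it also carries resin compounds that can be toxic to fungi. The table identifies genes by number alone and holds no names, so no gene below can be assigned to one of these enzyme groups, and only a few numbers are printed.

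The deposited values are the authors' normalised log2 read counts, with 1 value per medium. Reads in single libraries were recovered from the decimals of these values for 3 pine and 3 cellulose libraries. These carry no replicate number and are called a, b and c only by the order of their scaling factors. Library values were recovered in both media for 807 genes, and these were tested. The other 142 genes have deposited values but no test, and 28 of them lay under level 13 on both media. The recovered reads summed to 589494 to 722108 per pine library over 855 genes and to 824961 to 888097 per cellulose library over 841 genes, which does not give the full depth of a library. Among the 807 tested genes, libraries of 1 medium had a median SD of 0.16 on pine and 0.17 on cellulose, on the log2 scale. The root mean square difference was 0.39 to 0.45 between pine libraries and 0.32 to 0.47 between cellulose libraries, against 1.90 to 1.98 for a pine library and a cellulose library.

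On pine, more genes were strongly lower than were strongly higher. Of the 807 tested genes, 104 were higher on pine than on cellulose and 219 were lower. A call needed limma's adjusted p under 0.05 and a log2 difference of at least 1. Calls of either direction made up 40% of the tested genes, those higher on pine 12.9% and those lower on pine 27.1%. The majority of lower calls depends on the scaling: calls higher on pine made up 32.2% of all calls with the values as the authors scaled them, but 58.3% were once libraries were centred on their own medians. The median difference was 1.53 among the genes called higher and -2.17 among those called lower. A difference of at least 3, was reached by 9 genes called higher and 74 called lower. A difference of at least 6 was reached by 1 gene called higher and 16 called lower.

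Most of the listed genes differed by less than 1. Over all 949 genes the median of the deposited differences was -0.09, the middle of the distribution ran from -1.20 (25th percentile) to 0.60 (75th percentile), and the most frequent difference lay at 0.21. The extremes were -9.17 and 7.97. Deposited levels differed by less than 1 for 559 genes and by less than 0.5 for 321 genes. Genes above and below 0 were nearly balanced, at 443 and 506. The median level was 8.11 on pine and 8.86 on cellulose, a wider gap than the median difference of single genes. By size alone, 128 of the listed genes (13.5%) were higher on pine by at least 1 and 262 (27.6%) lower.

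**Figure D1:**
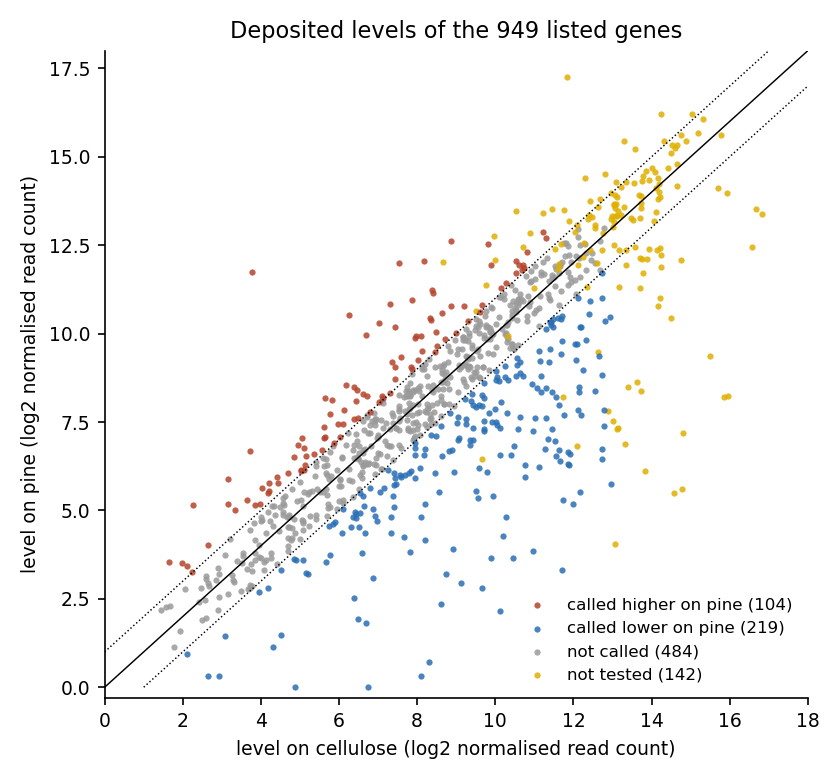
Deposited level of each of the 949 listed genes on pine (vertical axis) against its level on cellulose (horizontal axis), both as log2 normalised read counts. Red and blue points are the 104 and 219 genes called higher and lower on pine, grey points the 484 tested genes not called and yellow points the 142 genes not tested; the solid line marks equal levels and the dotted lines a difference of 1, and the blue points reach much farther from the line than the red ones.

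Of the 484 tested genes that were not called, 267 passed the adjusted p with a difference smaller than 1, and 217 did not pass it. The median standard error of a difference was 0.16. Near the size limit, 12 genes called higher and 12 called lower lay within 0.1 above it, while 16 and 14 lay within 0.1 below it. The 3 pine libraries lay all above or all below the 3 cellulose libraries for 602 tested genes (74.6%), 255 of them above and 347 below. Among the called genes this held for 102 of the 104 higher on pine and for 217 of the 219 lower. The calls were made from these same libraries, so that count follows largely from the call.

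Gene 677373 had the greatest rise among the tested genes. It held 3983, 3216 and 2457 reads in the pine libraries a, b and c, against 24, 21 and 3 reads in the cellulose libraries. The levels were 11.93, 11.75 and 11.53 on pine and 4.70, 4.51 and 2.09 on cellulose, as log2(normalised reads + 1). Groups without overlap were a condition for choosing this gene, and cellulose library c lay well below the other cellulose libraries. The mean was 11.74 ± 0.20 on pine and 3.77 ± 1.46 on cellulose (SD, n = 3 each), a log2 difference of 7.97 (SE 0.48, limma adjusted p = 8.99e-10), and it was 7.13 without cellulose library c. That SE draws on the spread within all 5 media. With only pine and cellulose libraries in the fit, limma's adjusted p was 1.76e-06. The gene ranked 156th of all listed genes on pine and 897th on cellulose. Its deposited level was 9.75 on aspen, 8.47 on wheat straw and 3.55 on maltose, so it was low on both media without plant tissue.

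Gene 769467 followed with a smaller spread. Its pine libraries held 4322, 3293 and 3754 reads and its cellulose libraries 168, 201 and 159 reads. The level was 11.99 ± 0.19 on pine and 7.54 ± 0.16 on cellulose (SD, n = 3 each), which is 21.9-fold higher on pine. Groups without overlap were again a condition of the choice. Limma gave a log2 difference of 4.45 (SE 0.12, adjusted p = 4.28e-13). Unlike 677373, this gene stayed between 7.82 and 8.83 on maltose, wheat straw and aspen.

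Gene 812496 had the highest pine level among the genes called higher. It held 8229, 7437 and 5631 reads in the pine libraries, against 2074, 2505 and 2238 in the cellulose libraries. The level was 12.89 ± 0.14 on pine and 11.22 ± 0.14 on cellulose (SD, n = 3 each), and the difference was 1.66 (SE 0.17, limma adjusted p = 1.79e-06). Its deposited level was 13.51 on aspen and 12.85 on wheat straw, so pine was not the medium with its highest level.

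Among the tested genes that fell, 765849 changed most. It held 16, 6 and 6 reads in the pine libraries and 2850, 2930 and 3751 reads in the cellulose libraries. The level was 3.33 ± 0.64 on pine and 11.70 ± 0.25 on cellulose (SD, n = 3 each). The groups lay far apart, with a difference of -8.37 (SE 0.30, limma adjusted p = 3.64e-12), a 331-fold lower level on pine. Gene 765849 was at 7.62 on maltose, 6.61 on aspen and 5.36 on wheat straw, so cellulose was the medium in which it stood out.

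Gene 808587 was close behind. Its pine libraries held 4, 2 and 4 reads and its cellulose libraries 1108, 951 and 1144 reads. The level was 2.16 ± 0.46 on pine and 10.13 ± 0.17 on cellulose (SD, n = 3 each), a difference of -7.97 (SE 0.27, limma adjusted p = 2.33e-12). With so few reads on pine the size of the fall depends on the added count, and it was -7.04 with 5 added in place of 1. The gene was at 10.28 on wheat straw and 8.17 on aspen, and at 6.16 on maltose, so pine had its lowest level of the 5 media.

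Gene 911219 had the highest cellulose level among the genes called lower on pine. It held 47, 39 and 64 reads in the pine libraries, against 7539, 7132 and 8043 in the cellulose libraries. The level was 5.75 ± 0.46 on pine and 12.96 ± 0.12 on cellulose (SD, n = 3 each), with a difference of -7.21 (SE 0.19, limma adjusted p = 3.46e-13). Here the control medium was near cellulose, at 12.53, and the other wood was low, at 7.58 on aspen.

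**Figure D2:**
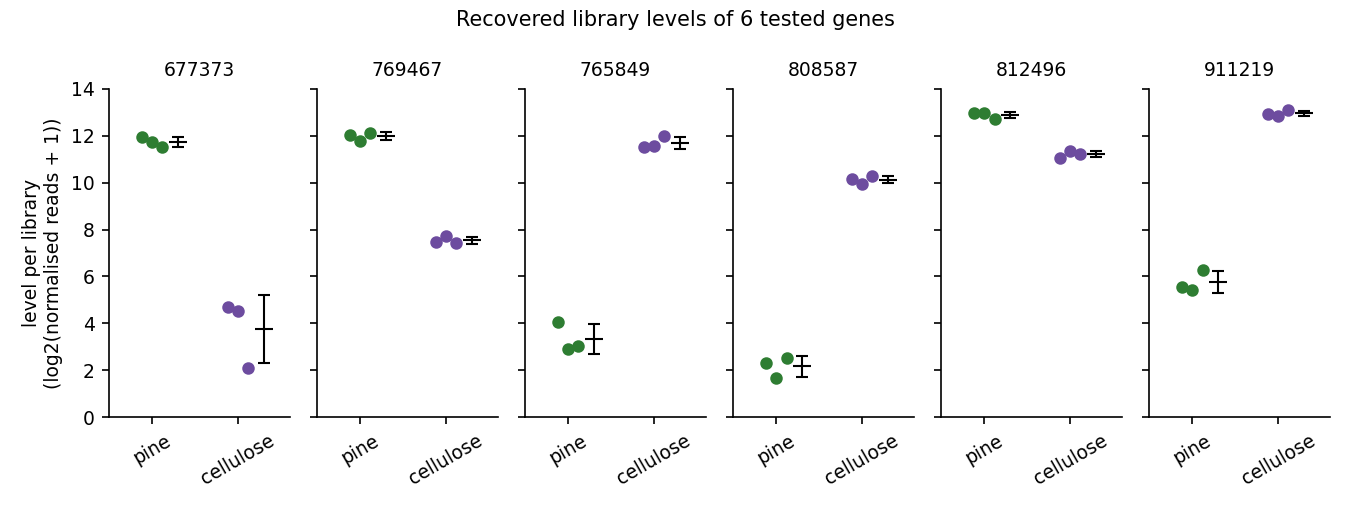
Level of 6 tested genes in the recovered libraries, as log2(normalised reads + 1), with the 3 pine libraries in green on the left of each panel and the 3 cellulose libraries in purple on the right. Bars give the mean and SD (n = 3). Genes 677373, 769467, 765849 and 808587 were chosen among called genes whose groups do not overlap. The groups do not overlap in 812496 and 911219 either. The widest spread is that of 677373 on cellulose, where library c held 3 reads.

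Several genes were almost silent on pine. Over the 3 pine libraries, 7 tested genes had 3 reads or fewer, and over the 3 cellulose libraries none of the 807 did. All 7 were called lower on pine, a direction set by choosing them for few reads on pine. Genes 153712, 815752 and 939217 held only 20, 18 and 10 reads over the cellulose libraries, so they had few reads on both media. A pair of the 7 had 0 reads on pine. All genes in this paragraph were named after their values were seen. Gene 789979 had 87, 103 and 116 reads in the cellulose libraries, which is at least 99.5-fold lower on pine if 3 reads over its libraries are taken as the limit that a count of 0 allows. Gene 804624 had 25, 25 and 31 reads on cellulose and was at least 26.3-fold lower on pine by the same limit. These limits cover counting error only. Gene 789979 was also low on wheat straw (1.32), maltose (2.19) and aspen (3.70). Gene 804624 was at 6.36 on wheat straw but low on maltose (1.67) and aspen (1.99).

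Calls that rest on few reads were a minority. Fewer than 30 reads over the pine libraries stood behind 25 of the 219 genes called lower, and fewer than 30 over the cellulose libraries behind 9 of the 104 called higher. Over all 807 tested genes, 59 had fewer than 30 reads on pine and 41 on cellulose. Genes with few reads were thus more frequent among these calls, and a call lower on a medium favours few reads there. How often genes differed by at least 1 varied with their level. Among the 128 genes with a mean level under 5 over both media, 12.5% were higher on pine and 18.8% lower. At mean levels from 9 to 11 these shares were 11.6% and 34.7% of 225 genes, and at 13 or more they were 15.8% each way, of 76 genes.

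The most abundant transcripts differed in part between the media. Of the 78 genes at level 13 or more on pine, 59 were as high on cellulose, 19 were at 9 to 13 there and 0 were under 9. Of the 95 genes at 13 or more on cellulose, 59 were as high on pine, 22 were at 9 to 13 and 14 were under 9. The 10 highest genes of each medium had 2 in common, the 50 highest shared 27 and the 100 highest shared 64. The shared pair of the 10 highest, 826215 and 855347, was named after its values were seen. Gene 826215 was at 15.61 on pine and 15.77 on cellulose, and gene 855347 at 16.07 on pine and 15.32 on cellulose.

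The highest gene on pine was 873101, at a deposited level of 17.27, against 11.82 on cellulose, where it ranked 179th. It had no test, because its pine value was too high to be searched for library reads. Its cellulose libraries held 4236, 4100 and 2345 reads (11.82 ± 0.45, SD, n = 3). This was the largest deposited rise among the untested genes, 5.45. On a linear scale the gene made up 6.14% of the summed deposited levels on pine, while the highest gene on cellulose made up 3.89% there. Gene 873101 was at 15.93 on aspen, 14.56 on wheat straw and 10.77 on maltose, an order of media like that of 677373.

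The highest gene on cellulose was 850433, at 16.83, against 13.38 on pine, where it ranked 61st. It was not tested, and its deposited difference was -3.45. Pine had its lowest level of the 5 media, since it was at 16.34 on aspen, 15.33 on wheat straw and 14.50 on maltose. The largest deposited fall of all was that of 765709, at 5.61 on pine and 14.79 on cellulose, a difference of -9.17. Its pine libraries held 78, 33 and 34 reads, and its cellulose value was too high to be searched for library reads. It ranked 748th on pine and 15th on cellulose, with 8.95 on aspen, 11.29 on wheat straw and 9.04 on maltose.

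Large falls also outnumbered large rises among the untested genes, for which there is no test. Most entered this group through a level of 13 or more, 59 on both media, 36 on cellulose only and 19 on pine only. Genes far higher on cellulose could thus enter by their cellulose level, so these counts are a description and not support for the tested genes. Of these 142 genes, 24 were higher on pine by at least 1 and 43 lower, with a median difference of 0.15. A fall of at least 4 occurred in 19 of them and a rise of at least 4 in 1, which was 873101. Those 19 genes ranged from 4.05 to 12.44 on pine (median 7.54) and from 12.10 to 16.56 on cellulose (median 13.73). Untested genes held 77.6% of the summed linear levels on pine and 74.7% on cellulose. Genes called lower held 2.37% of the sum on pine and 11.9% on cellulose, and genes called higher held 4.68% on pine and 1.15% on cellulose. These shares follow from how the genes were called and are given only as a description.

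The same genes were followed over the 5 media by their deposited levels. The 104 genes called higher had a median level of 8.37 on pine, 6.71 on cellulose, 7.50 on aspen, 7.56 on wheat straw and 7.21 on maltose. Pine was the medium of highest level for 60 of them, aspen for 19, maltose for 15 and wheat straw for 10. Over all 949 genes pine had the highest level for 191 and the lowest for 237, and choosing genes by their pine and cellulose levels favours these media at the extremes. The 219 genes called lower had a median of 6.72 on pine, 9.70 on cellulose, 8.19 on aspen, 9.38 on wheat straw and 7.23 on maltose. Pine had the lowest level for 121 of these, maltose for 73, aspen for 13 and wheat straw for 12. Cellulose had the highest for 101 and wheat straw for 79. Over all 949 genes maltose had the lowest level for 313, a share like that of 73 in 219. Cellulose had the highest for 173 and wheat straw for 228 of all genes. Medians over all genes were 8.11 on pine, 8.86 on cellulose, 8.91 on aspen, 9.21 on wheat straw and 8.10 on maltose.

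**Figure D3:**
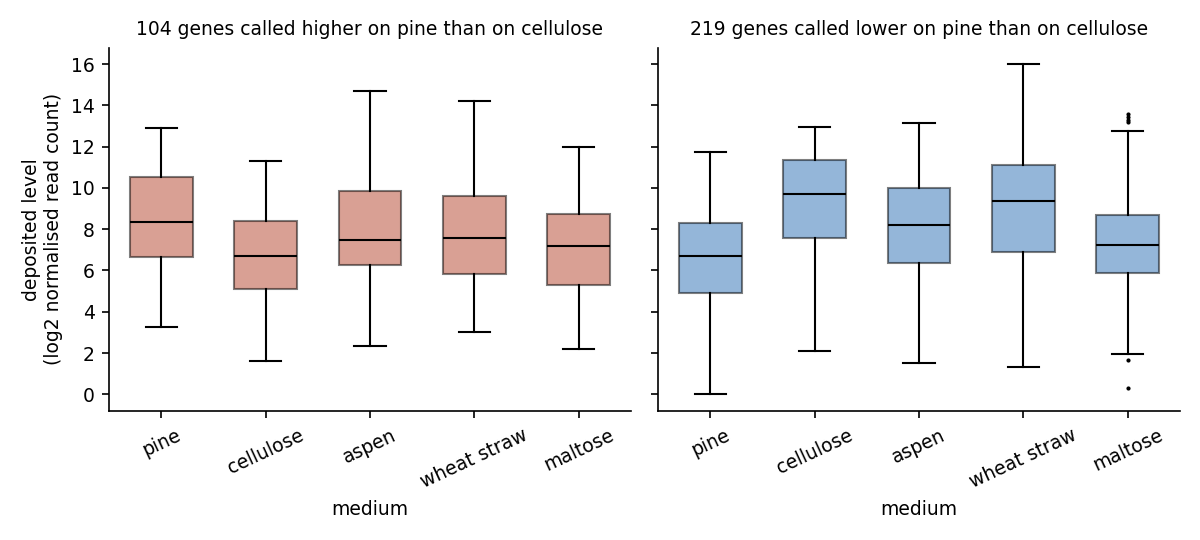
Deposited level (log2 normalised read count) on the 5 media of the 104 genes called higher on pine (left) and the 219 called lower (right); the box spans the 25th to 75th percentile, the line is the median, whiskers reach the outermost genes of the standard box plot range and dots are genes beyond it. The genes were chosen by the pine and cellulose values, so those boxes differ by construction. Among genes called lower, wheat straw (median 9.38) lies near cellulose (9.70), maltose (7.23) near pine (6.72) and aspen (8.19) between. Medians over all 949 listed genes were 8.11 on pine, 8.86 on cellulose, 8.10 on maltose, 9.21 on wheat straw and 8.91 on aspen. There too maltose lies near pine, and wheat straw and aspen are nearer to cellulose.

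The 16 genes called lower by at least 6 spanned 0.00 to 6.46 on pine (median 3.49) and 6.75 to 12.96 on cellulose (median 10.30). Their median was 6.66 on aspen, 9.40 on wheat straw and 6.63 on maltose. Pine had the lowest level of the 5 media for 13 of the 16. The 9 genes called higher by at least 3 spanned 9.97 to 12.62 on pine (median 10.95) and 3.77 to 8.86 on cellulose (median 7.31). Their median was 8.83 on aspen, 7.64 on wheat straw and 7.67 on maltose, and pine had the highest level for 7 of the 9. Choosing genes by a wide gap from cellulose favours pine at the extremes. Of all 949 genes, pine had the lowest level for 237 and the highest for 191.

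The level on aspen, the hardwood, lay between those on pine and cellulose for 72 of the 104 genes called higher and for 165 of the 219 called lower. The level on wheat straw lay between them for 68 and 111 of these genes, and that on maltose for 48 and 106. Genes chosen for a wide gap between 2 media tend to have other values within it, so these counts are a description. On aspen the level was nearer to pine than to cellulose for 55.8% of the genes called higher and 49.3% of those called lower. On wheat straw it was nearer to pine for 46.2% of the genes called higher and 26.5% of those called lower. On maltose these shares were 37.5% and 62.6%. No such shares were taken over all listed genes. The medians of all listed genes were 8.91 on aspen, 9.21 on wheat straw and 8.10 on maltose, against 8.11 on pine and 8.86 on cellulose. These shares are thus a description too.

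Pine was also tested directly against aspen and against wheat straw. These tests share the 3 pine libraries with the comparison that chose the genes, so each count is set beside the share called among all genes tested. Against aspen, 35 of the 98 tested genes from those higher on pine than on cellulose were called higher on pine (35.7%), and 129 of the 218 from those lower were called lower (59.2%). Over all 829 genes tested against aspen, 6.88% were called higher and 27.3% lower on pine. Against wheat straw, 41 of 104 (39.4%) were called higher and 157 of 219 (71.7%) lower, while over all 855 genes tested 8.42% were called higher and 31.6% lower. The balance of these counts depends on the scaling. With centring on the median difference, 50 of 98 (51%) were higher than on aspen and 101 of 218 (46.3%) lower, where 13.4% and 18.1% of the 794 genes tested against both aspen and cellulose were called. Against wheat straw, 61 of 104 (58.7%) were then higher and 141 of 219 (64.4%) lower, where 15.4% and 25.5% of 807 genes were called. The particle size of the milled aspen also differed from that of pine. The amount of maltose printed for aspen cannot be read in the labels. The wheat straw values rest on 2 libraries, although the labels list 3 samples.

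Each side was set against maltose too, with the difference that this control medium held 20 g/l of maltose. Among the genes called lower on pine than on cellulose, 214 could be tested on both sides. Their median difference from maltose was -0.64 on pine and 1.78 on cellulose. On pine 28 of them were called higher than on maltose and 83 lower, where 20% and 18.1% of all 824 genes tested were called. On cellulose 144 were called higher than on maltose and 11 lower, where 27.7% and 11.6% of all 812 genes tested were called.

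Among the genes called higher on pine than on cellulose, 102 could be tested on both sides. Their median difference from maltose was 1.22 on pine and -0.32 on cellulose. On pine 59 (57.8%) were called higher than on maltose and 4 (3.92%) lower, where 20% and 18.1% of all 824 genes tested were called. On cellulose 16 (15.7%) were called higher and 28 (27.5%) lower, where 27.7% and 11.6% of all 812 genes tested were called. The maltose libraries are the same in both comparisons, and the pine and cellulose libraries are those that chose the genes, so no overlap between these calls is given as a result.

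Scaling moved the balance between directions, while large falls outnumbered large rises under each scaling tried. Relative to the values as deposited, own-median centring raised the median change of the tested genes by 0.55, quantile normalisation by 0.53, and centring on the median difference from the gene means by 0.20. The calls were then 221 higher and 158 lower, 222 and 162, and 146 and 195 (18.1% and 24.2% of the tested genes), in the same order, against 104 and 219 as deposited. Of the called genes, the share higher on pine was 57.8% with quantile normalisation and 42.8% with centring on the median difference. All 104 genes called higher as deposited were called higher under the other 3 scalings, and 153 of the 219 called lower were called lower under all of them. All 3 shifts ran upward at the median, which favours keeping calls higher on pine and losing those lower, so these counts do not measure stability. Genes lower on pine by at least 4 numbered 47, 36, 35 and 43 over the 4 scalings, and those higher by at least 4 numbered 3, 6, 6 and 4. The 6 tested genes described above kept their call and direction under the other 3 scalings. Their falls were far larger than these shifts and their rises ran the same way, so this does not measure stability either.

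**Figure D4:**
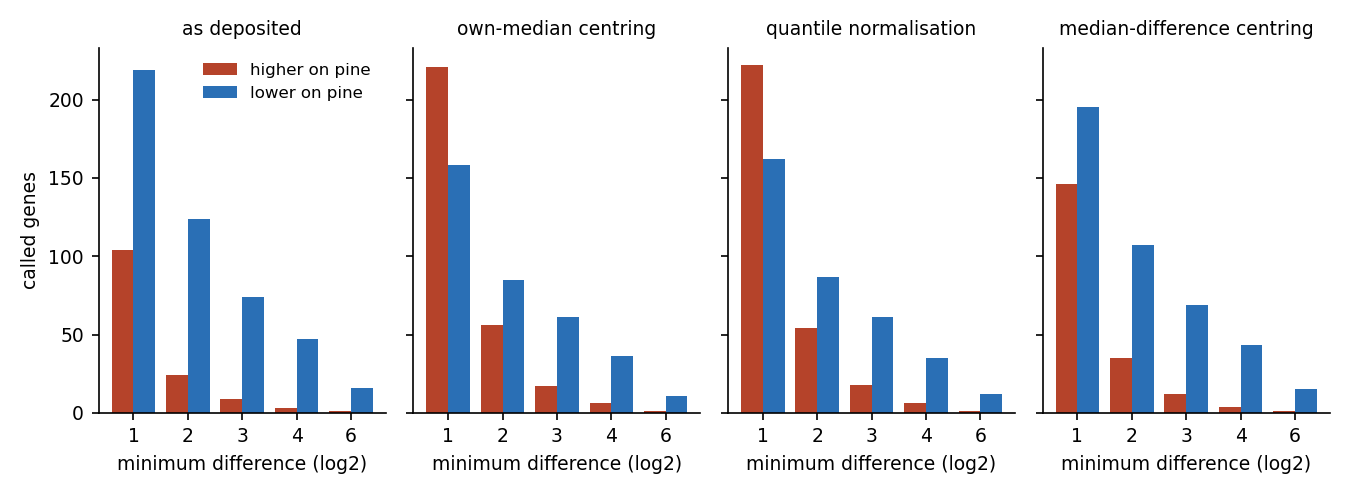
Number of called genes higher (red) and lower (blue) on pine that reached each minimum log2 difference, from 1 to 6, under 4 ways of scaling the libraries. At a minimum of 1 the higher genes outnumber the lower ones after own-median centring (221 against 158) and quantile normalisation (222 against 162) but not as deposited (104 against 219) or after median-difference centring (146 against 195); from a minimum of 2 upward the lower genes are more numerous under all 4.

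The SD between libraries exceeded 0.5 for 65 of the tested genes on pine and for 69 on cellulose. Cellulose library c was the farthest from the other libraries of its medium in 44 of those 69 genes. Without it, 98 of the 104 genes called higher and 210 of the 219 called lower kept their call. Over the 6 fits that each left out 1 pine or cellulose library, 86 of the genes called higher and 202 of those called lower kept their call in all.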

How the data were processed

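Mycelium was grown in 5 media. Per the labels' protocols, poly A RNA was turned into cDNA and read in pairs on an Illumina HiSeq instrument. TopHat2, HTSeq and DESeq 1.5 appear in the submitters' processing notes, with no role stated. The sources used here do not give the genome build, annotation, strand setting or how the 949 genes were chosen. The authors deposited 1 log2 normalised read count per gene and medium, per the file headers.

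Each deposited log2 value was decoded as a mean over libraries of log2(reads x factor + 1) with whole reads. The search had a tolerance of 4e-14 below level 10 and 1.5e-13 from it (natural log). Reads of a library were searched only within a range around the deposited level, narrower at higher levels. Values with a wider spread between libraries than this range could not be recovered correctly. For pine and cellulose, 1053 of 1053 values below level 9 gave exactly 1 set of reads, and 0 decoys shifted by 1e-06 did. From 9 to 13, 643 of 672 gave 1 set, 24 several and 5 none. A set was also found for 15 decoys in that range, and some read sets there may be wrong. The 173 values at 13 or more were not searched. One read was worth 0.982 to 1.20 normalised counts on pine and 1.04 to 1.08 on cellulose. Replicate read counts differed by more than sampling noise in all 6 pairs (chi-square per degree of freedom 3.83 to 29.4).

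Limma 3.58.1 (R 4.3.3) was fitted to the 14 recovered libraries, each medium with its own mean, using an intensity trend, a pseudocount of 1, no filter on low values and no covariates, with Benjamini-Hochberg adjustment over the genes tested in each comparison. The recovery and the test were checked on simulated data. Alternatives were 3 scalings, a pseudocount of 5, a level filter, other fits, size limits and left-out libraries. Named genes are the 2 largest tested rises and falls without overlap, the called gene of highest level in each direction, the largest untested rise and fall, and the highest gene of each medium. Members, lists and tests were chosen with earlier results of these data known. Reads of near-identical or overlapping genes could not be examined.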

Additional observations from a re-analysis of the deposited data

How the results depend on the processing

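No paired analysis was possible because the recovered libraries carry no replicate number. The count of genes called higher on pine (104) was 221 after own-median centring and 222 after quantile normalisation. With no minimum difference 590 genes were called, 250 higher and 340 lower, and with a minimum of 2 they were 148, 24 higher and 124 lower. By size alone, a minimum of 2 left 188 listed genes, 33 higher and 155 lower. Leaving out 1 library at a time gave 320 to 329 calls, 99 to 112 higher and 212 to 225 lower. After centring on the median difference, an alternative for which these leave-outs were added after the data were seen, the range was 332 to 347 calls, 139 to 155 higher and 192 to 197 lower. The cause of these moves was not tested, beyond the size limits, which change the count by construction. The difference of 677373 ranged from 7.13 to 8.44 when 1 library was left out, that of 769467 from 4.38 to 4.56, 765849 from -8.74 to -8.15, 808587 from -8.16 to -7.71, 812496 from 1.59 to 1.75 and 911219 from -7.47 to -7.04. These 6 genes kept their call in each alternative fit in which they were tested, and choosing the largest rises and falls favours this. At a minimum difference of 2, however, gene 812496, at 1.66, would not be called. Depth limits the genes near 0 reads on pine, where folds are lower bounds or move with the pseudocount.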
